A study of Mus musculus with 9 samples.

Results

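The costimulatory and checkpoint ligands described here are 7 genes, Cd80, Cd86, Cd40, Cd274, Pdcd1lg2, Icosl and Vsir, of the 53465 genes in the deposited count table. They were chosen by symbol, and each stood on a single line of the table. RNA-Seq was performed on 9 libraries of mouse bone marrow-derived macrophages (BMDMs), which were grown from marrow of male wild-type C57BL/6 mice with 50 ng/ml CSF1 for 5 to 10 days. Of these, 3 were left untreated (UNX), 3 received medium conditioned by pulmonary artery adventitial fibroblasts of control calves (CO-CM), and 3 received medium from fibroblasts of calves with hypoxia-induced pulmonary hypertension (PH-CM). The labels give a treatment time of 16 h in the growth protocol and of 24 h in the treatment protocol, and the study's methods state yet another, so the time is uncertain. Both media came from pools of several fibroblast populations. Replicates thus repeat the macrophage culture and not the calf, nothing ties them to separate mice, and p-values measure the spread between these cultures. UNX cells received no conditioned medium, so both comparisons with UNX differ by fibroblast medium as such as well as by its source, and they share the 3 UNX libraries.

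A T cell that recognizes antigen on a macrophage or dendritic cell needs a further signal to become activated, and the classical source of it is CD80 or CD86 on the presenting cell, bound by CD28 on the T cell. CTLA4 binds the same ligands and dampens the response, ICOS ligand sustains T cells that are already activated, and CD40 is the receptor through which T cells carrying CD40 ligand stimulate the presenting cell in return. PD-L1 (Cd274) and PD-L2 (Pdcd1lg2) are ligands of the inhibitory receptor PD-1, and VISTA (Vsir) is a checkpoint protein of myeloid cells that restrains T cells.

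PH-CM raised Cd80 and Cd86, and CO-CM did not change either detectably. Cd274 and Vsir were higher under both media, Icosl was lower under both, and Cd40 was lower under CO-CM and lower again under PH-CM. Pdcd1lg2 was near 0 in every library. In bulk RNA a change in the number of cells of a type cannot be told apart from a change in RNA per cell. Counts, shown as CPM (reads scaled to a common library size with TMM factors), were compared with the edgeR quasi-likelihood test over the 11950 genes for which 3 or more libraries exceeded 1 CPM. Calls required both an FDR up to 0.05 and a change of 1.2-fold or more. For this filter alone, CPM were scaled to library size without TMM factors. Of the 7 members, 6 passed it, each of them over 1 CPM in all 9 libraries, and Pdcd1lg2 was over 1 CPM in none. The lowest Cd40 library was at the limit, at 1.001 CPM. For PH-CM against UNX, 4 of the 6 were called higher, where 31.3% of all genes tested were, and 2 were called lower, where 31.7% of all genes were. For CO-CM against UNX, 2 were called higher against 28.0% of all genes and 2 were called lower against 28.9%. For PH-CM against CO-CM, 2 were called higher against 12.2% of all genes and 1 was called lower against 15.0%. The median log2 fold change of the 6 was 1.51, 0.05 and 0.24 in these comparisons, and that of all genes tested was 0.0072, 0.00024 and -0.0064.

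**Figure D1:**
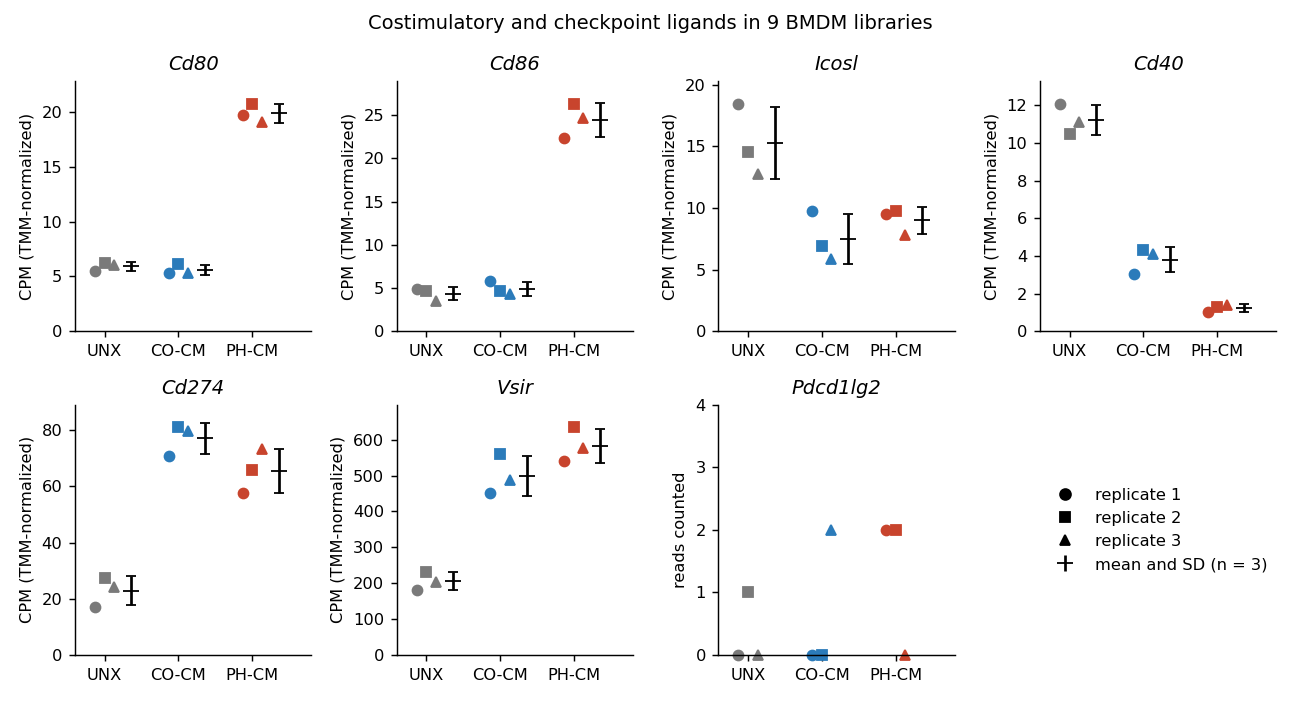
Level of each ligand in the 9 libraries, as TMM-normalized CPM or, for Pdcd1lg2, as reads counted with no mean drawn; symbols mark the replicate number, and the bar beside each group is the mean with its SD (n = 3). The PH-CM libraries stand apart for Cd80 and Cd86, both media stand apart from UNX for Cd274 and Vsir, and Cd40 falls in 2 steps.

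Promoter windows of 250 bases before the RefSeq start were at hand for 5 of the 7 members on GRCm38.p6 (no entry for Cd40 or Cd86). Of these, 4 are shown, for the member that rose under PH-CM (Cd80), the pair that rose under both media (Cd274 and Vsir), and the neighbour of Cd274 that was near 0 (Pdcd1lg2). Capitals mark the only match found to the letter patterns searched, which are given below the windows. It was an AP-1 element 42 to 36 bases before the RefSeq start of Cd80. In the GENCODE vM21 annotation Cd80 begins earlier, at chr16:38455561, so this window lies inside the gene as annotated there.
Cd80, chr16:38458683-38458932, plus strand: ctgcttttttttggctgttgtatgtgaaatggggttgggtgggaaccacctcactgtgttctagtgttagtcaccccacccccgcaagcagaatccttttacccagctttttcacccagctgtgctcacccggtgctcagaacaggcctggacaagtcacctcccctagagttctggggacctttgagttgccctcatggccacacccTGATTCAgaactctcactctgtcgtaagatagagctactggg
Cd274, chr19:29367188-29367437, plus strand: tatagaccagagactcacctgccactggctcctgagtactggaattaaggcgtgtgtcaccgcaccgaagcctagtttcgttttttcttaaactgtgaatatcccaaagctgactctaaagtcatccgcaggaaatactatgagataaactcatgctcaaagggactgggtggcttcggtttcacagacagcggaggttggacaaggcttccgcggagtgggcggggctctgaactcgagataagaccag
Vsir, chr10:60346601-60346850, plus strand: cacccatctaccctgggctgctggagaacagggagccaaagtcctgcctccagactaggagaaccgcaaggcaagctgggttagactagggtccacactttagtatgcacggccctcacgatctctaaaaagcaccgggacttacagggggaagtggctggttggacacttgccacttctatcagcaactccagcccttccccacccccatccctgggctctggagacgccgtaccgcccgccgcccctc
Pdcd1lg2, chr19:29410669-29410918, plus strand: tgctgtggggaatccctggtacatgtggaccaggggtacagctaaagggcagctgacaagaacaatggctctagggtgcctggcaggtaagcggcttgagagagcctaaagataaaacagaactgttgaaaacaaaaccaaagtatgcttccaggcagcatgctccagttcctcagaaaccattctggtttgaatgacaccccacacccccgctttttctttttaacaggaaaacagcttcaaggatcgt
The motifs were searched on both strands. Among 32851 windows of this length, 6.75% held the AP-1 element TGANTCA, 7.02% the STAT element TTCNNNGAA, 2.98% the interferon-stimulated response element core, 4.65% the NF-kB element and 16.57% the HIF core ACGTG. The window of Icosl held none of them either. The GC content of the windows was 52.8% for Cd80, 50.4% for Cd274, 60.4% for Vsir, 48.4% for Pdcd1lg2 and 68.8% for Icosl, with a median of 52.4% over all windows. A match describes letters in the window and not a bound site.

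Cd80 (ENSMUSG00000075122) encodes B7-1, a ligand of CD28 and CTLA4, and lies on the plus strand at chr16:38455561-38496335 of GRCm38. Its level was 5.48, 6.21 and 6.07 CPM in UNX replicates 1 to 3 and 5.35, 6.11 and 5.31 CPM under CO-CM. Under PH-CM it was 19.7, 20.8 and 19.1 CPM. Every PH-CM library stood above every other library, while the UNX and CO-CM libraries overlapped. The mean of 19.9 ± 0.824 CPM under PH-CM against 5.92 ± 0.389 CPM in UNX (SD, n = 3 in each group, as for all means here) corresponded to 1.75 on the log2 scale (SE 0.083, edgeR FDR 2.7e-08), or 3.35-fold. The rise was seen in 3 of 3 pairs of libraries with the same replicate number. Against CO-CM, with 5.59 ± 0.447 CPM, the log2 fold change was 1.83 (SE 0.084, edgeR FDR 1.95e-07). CO-CM against UNX gave -0.08 (95% interval -0.27 to 0.11, edgeR FDR 0.399), with CO-CM lower in 3 of 3 pairs, so a change of Cd80 under CO-CM was not detected.

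Cd86 (ENSMUSG00000022901) encodes B7-2, the other ligand of CD28 and CTLA4, and lies on the minus strand of the same chromosome at chr16:36603869-36666081. UNX replicates 1 to 3 had 4.85, 4.69 and 3.50 CPM, and the CO-CM replicates 5.82, 4.65 and 4.27 CPM. The PH-CM replicates had 22.4, 26.3 and 24.7 CPM. As for Cd80, the 3 PH-CM libraries were higher than all others, and UNX and CO-CM overlapped. PH-CM raised Cd86 by 2.50 on the log2 scale (SE 0.14, edgeR FDR 1.06e-07), or 5.64-fold, over a UNX mean of 4.35 ± 0.734 CPM. Against CO-CM the difference was 2.31 (SE 0.14, edgeR FDR 1.42e-06), from 4.92 ± 0.806 to 24.5 ± 1.98 CPM. CO-CM against UNX gave 0.18 (95% interval -0.14 to 0.51, edgeR FDR 0.290), with 2 of 3 pairs higher.

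The balance between the CD28 ligands was read as the ratio of Cd80 to Cd86 RPKM within a library, which does not depend on scaling between libraries. It was 2.43, 2.85 and 3.73 in UNX, 1.98, 2.82 and 2.68 under CO-CM and 1.90, 1.70 and 1.67 under PH-CM. All PH-CM values lay below all UNX and CO-CM values. The mean log2 ratio was 0.76 lower under PH-CM than in UNX and 0.49 lower than under CO-CM, each with a two-sided exact permutation p of 0.1, which is the smallest p that 3 libraries against 3 allow. CO-CM and UNX overlapped (difference -0.26, exact permutation p = 0.4), although CO-CM was the lower in 3 of 3 pairs of the same replicate number. The permutation did not use the pairs. The size of the ratio itself rests on the exon length behind the deposited RPKM of Cd80, which was 1701 bases, while the GENCODE vM21 annotation holds 3703 exonic bases for this gene. With the vM21 length and unchanged counts, the mean ratio would be 1.38 ± 0.303 in UNX and 1.15 ± 0.207 under CO-CM. Under PH-CM it would be 0.806 ± 0.0576, with Cd86 above Cd80. Reads were not recounted over the longer exons, so these values hold only if the added bases bring no further reads. With unchanged counts, the log2 differences between groups do not depend on the Cd80 length.

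**Figure D2:**
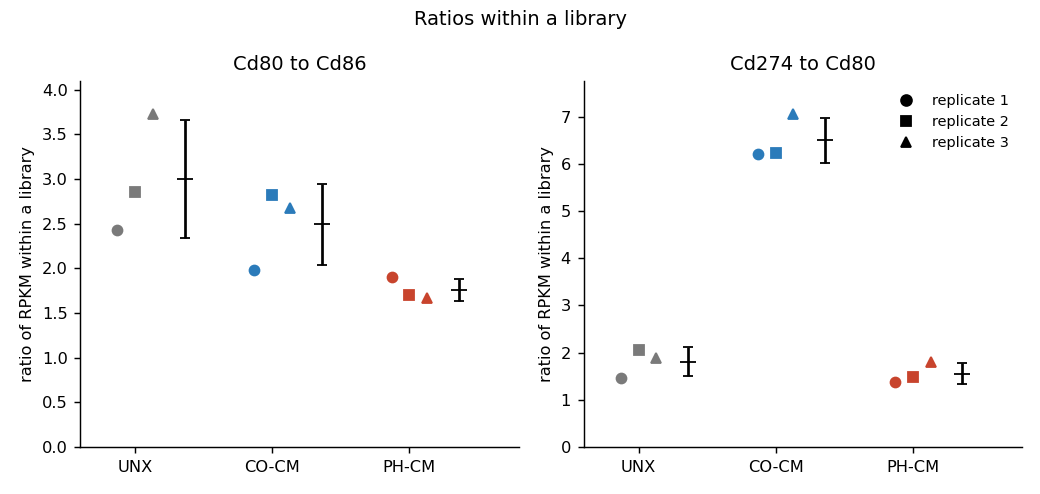
Ratio of Cd80 to Cd86 (left) and of Cd274 to Cd80 (right) in each library, from deposited RPKM, with the mean and SD of each group (n = 3). The Cd80 to Cd86 ratio is lowest under PH-CM, between 1.67 and 1.90, and the Cd274 to Cd80 ratio is highest under CO-CM, between 6.22 and 7.06, on the Cd80 exon length of 1701 bases behind the deposited values.

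Icosl (ENSMUSG00000000732), the ligand of ICOS, lies on the plus strand at chr10:78069302-78083913. It was 18.5, 14.5 and 12.8 CPM in UNX replicates 1 to 3, 9.78, 6.90 and 5.86 CPM under CO-CM and 9.48, 9.72 and 7.77 CPM under PH-CM. The UNX libraries were all above the treated libraries, and CO-CM and PH-CM overlapped. Icosl fell by 1.02 on the log2 scale under CO-CM (SE 0.19, edgeR FDR 0.000718) and by 0.76 under PH-CM (SE 0.19, edgeR FDR 0.00385), in 3 of 3 pairs each. Between PH-CM and CO-CM the difference was 0.26 (95% interval -0.17 to 0.69, edgeR FDR 0.319). The difference was called with the replicate number as a block in the fit (0.28, edgeR FDR 0.0376), and also without CO-CM replicate 1, the highest of its group (0.50, edgeR FDR 0.0418). Without CO-CM replicate 3, the lowest of its group, it was 0.11 (edgeR FDR 0.720), and over all left-out libraries it ranged from 0.11 to 0.50.

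Cd40 (ENSMUSG00000017652), a receptor of the TNF receptor family listed here as the partner of CD40 ligand, lies on the plus strand at chr2:165055627-165072948. UNX replicates had 12.1, 10.5 and 11.1 CPM, CO-CM replicates 3.04, 4.31 and 4.08 CPM and PH-CM replicates 0.997, 1.30 and 1.39 CPM. The groups did not overlap, and their order was UNX, CO-CM, PH-CM. The log2 fold change of Cd40 was -1.56 under CO-CM (SE 0.15, edgeR FDR 5.5e-06) and -3.19 under PH-CM (SE 0.16, edgeR FDR 4.72e-08), the latter a 9.12-fold difference. PH-CM against CO-CM gave -1.63 (SE 0.17, edgeR FDR 4.16e-05). At the lowest, 67, 81 and 88 reads stood behind the PH-CM values, against 783, 789 and 955 in UNX, and since mates of a pair appear to be counted separately, these reads come from fewer fragments. Cd40 went down in the cultures in which Cd80 and Cd86 went up. Under PH-CM the RPKM of Cd80 was 33.0 ± 6.15 times that of Cd40, against 1.06 ± 0.143 times in UNX and 2.99 ± 0.476 times under CO-CM. With the longer vM21 exon length of Cd80 and unchanged counts, these ratios would be 15.2 ± 2.82, 0.489 ± 0.0659 and 1.37 ± 0.218. Cd80 would then lie below Cd40 in UNX, unless the added bases bring further reads.

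Cd274 (ENSMUSG00000016496), which encodes PD-L1, lies on the plus strand at chr19:29367455-29388095. Its level was 17.1, 27.3 and 24.3 CPM in UNX, 70.9, 81.0 and 79.8 CPM under CO-CM and 57.5, 65.9 and 73.2 CPM under PH-CM. Both groups of treated libraries were above all UNX libraries, and they overlapped each other. The log2 fold change was 1.75 for CO-CM against UNX (SE 0.15, edgeR FDR 2.79e-06), or 3.37-fold, and 1.52 for PH-CM against UNX (SE 0.15, edgeR FDR 5.82e-06), or 2.86-fold. PH-CM against CO-CM gave -0.24 (95% interval -0.56 to 0.08, edgeR FDR 0.225), with PH-CM lower in 3 of 3 pairs. Exons of Cd274 share 511 bases with AC119228.1 on the opposite strand, and the counting did not use strand.

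Cd274 was called higher under CO-CM and Cd80 was not, so their ratio was also read. The ratio of Cd274 to Cd80 RPKM within a library was 1.47, 2.06 and 1.88 in UNX, 6.22, 6.23 and 7.06 under CO-CM and 1.37, 1.49 and 1.80 under PH-CM. The CO-CM libraries stood apart, and UNX and PH-CM overlapped. The size of these ratios rests on the Cd80 exon length as well. With that of vM21 and unchanged counts, the means would be 3.93 ± 0.667 in UNX, 14.2 ± 1.04 under CO-CM and 3.38 ± 0.482 under PH-CM. For Cd274 to Cd86 the means were 5.48 ± 1.75 in UNX, 16.3 ± 3.48 under CO-CM and 2.71 ± 0.252 under PH-CM. These ratios were chosen after the values had been seen and are given as a description.

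Pdcd1lg2 (ENSMUSG00000016498), which encodes PD-L2, begins 22823 bases after the end of Cd274, on the same strand at chr19:29410919-29471161. It had 7 reads in all libraries together. UNX replicates had 0, 1 and 0 reads, CO-CM replicates 0, 0 and 2, and PH-CM replicates 2, 2 and 0. No library reached 3 reads, the limit that a count of 0 allows, and neither a level nor a difference between groups was detectable at this depth. The neighbouring Cd274 had 33782 reads over the same libraries. The gene overlaps A930007I19Rik on the opposite strand, which had 1005 reads.

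Vsir (ENSMUSG00000020101), which encodes VISTA, lies on the plus strand at chr10:60346851-60372684. Its level was 182, 231 and 204 CPM in UNX, 451, 560.4 and 488 CPM under CO-CM and 540.5, 634 and 576 CPM under PH-CM. All treated libraries were above all UNX libraries, and CO-CM and PH-CM overlapped. Vsir rose by 1.28 on the log2 scale under CO-CM (SE 0.10, edgeR FDR 1.79e-06) and by 1.50 under PH-CM (SE 0.10, edgeR FDR 3.82e-07), or 2.43-fold and 2.84-fold. PH-CM against CO-CM gave 0.22 (95% interval -0.0015 to 0.45, edgeR FDR 0.109), with PH-CM higher in 3 of 3 pairs. With the replicate block the FDR of this difference was 0.000226, and that of the Cd274 difference 0.0238, but both stayed under the fold change of 1.2. Without CO-CM replicate 2, the highest Vsir library of its group, the difference was 0.31 and was called (edgeR FDR 0.0438), and without CO-CM replicate 1, the lowest, it was 0.15 (edgeR FDR 0.279).

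**Figure D3:**
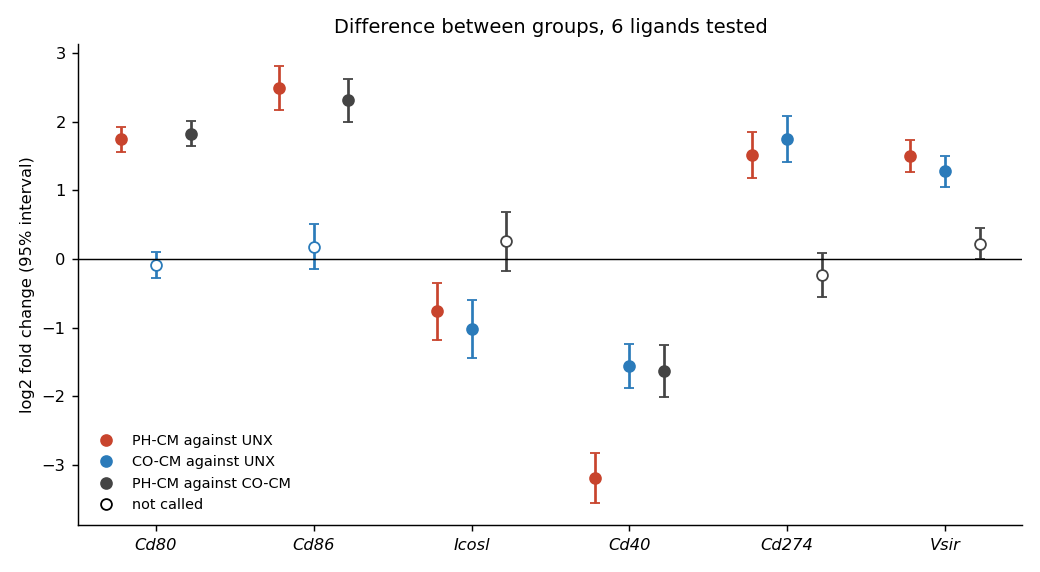
Log2 fold change of the 6 members tested in the 3 comparisons, with 95% intervals from the edgeR fit; filled points passed both thresholds (FDR 0.05, 1.2-fold). Cd80 and Cd86 are called with PH-CM and not for CO-CM against UNX. In this fit without a replicate block, Cd274, Icosl and Vsir are called against UNX and not between the media. With the block, Icosl is called between the media (edgeR FDR 0.0376).

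Levels were compared between genes on the deposited RPKM scale, which divides by exon length. Vsir was the highest member in all groups, at 42.2 ± 4.57 RPKM in UNX, 97.5 ± 9.19 under CO-CM and 115 ± 7.96 under PH-CM, and Cd274 came next, at 6.49 ± 1.41, 20.9 ± 1.11 and 17.9 ± 1.96 RPKM. In UNX, Cd80 (3.58 ± 0.189 RPKM), Icosl (3.40 ± 0.698) and Cd40 (3.39 ± 0.291) overlapped, and Cd86 (1.22 ± 0.217) lay below them. Under CO-CM, Cd80 (3.22 ± 0.219 RPKM) was above Icosl (1.599 ± 0.463), Cd86 (1.32 ± 0.241) and Cd40 (1.09 ± 0.175), and these last members overlapped their neighbours. Under PH-CM no neighbours overlapped, and the order was Vsir, Cd274, Cd80 (11.5 ± 0.459 RPKM), Cd86 (6.60 ± 0.446), Icosl (1.92 ± 0.235) and Cd40 (0.357 ± 0.056). The place of Cd80 rests on its exon length. With the 3703 bases of the vM21 annotation and unchanged counts, its means would be 1.64 RPKM in UNX, 1.48 under CO-CM and 5.30 under PH-CM. The last of them would lie below Cd86, unless the added bases bring further reads. Among genes with at least 1 read in the group, Vsir was above 94.9% in UNX and above 98.5% under PH-CM, Cd274 moved from above 74.3% to above 90.5% under CO-CM, and Cd40 moved from above 66.4% in UNX to above 47.5% under PH-CM.

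**Figure D4:**
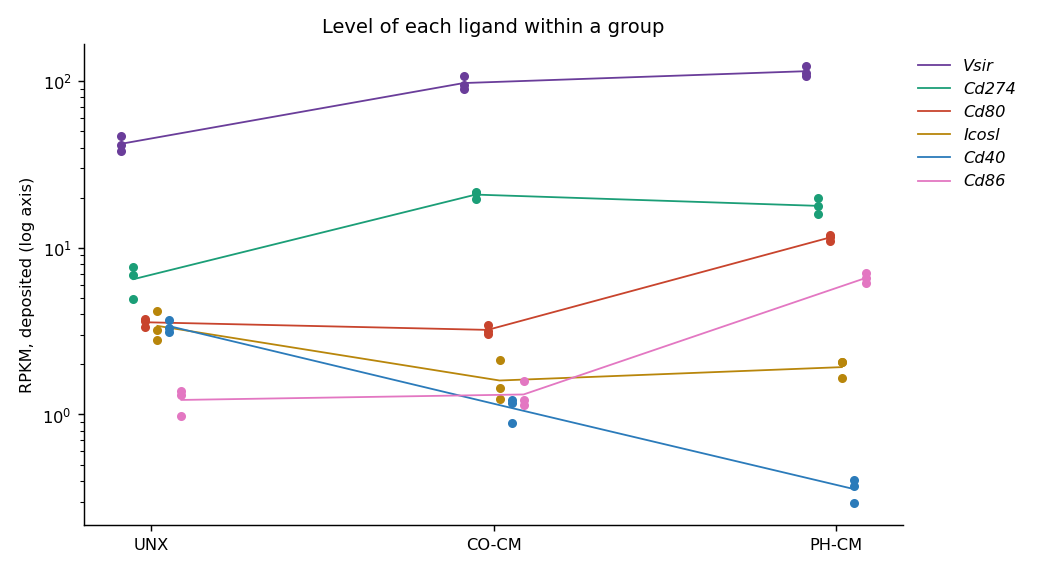
Deposited RPKM (log axis) of the 6 members above the filter in each group; points are libraries and lines join the group means. Vsir and Cd274 are highest in all groups, and the Cd86 mean goes from 1.22 RPKM in UNX to 6.60 under PH-CM, where it lies above Icosl and Cd40.

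The likeness of patterns was measured as the root mean square difference in log2 CPM over the 9 libraries, after each gene was centred on its own mean. Of the 15 pairs of members, Cd274 and Vsir were closest (0.26), then Cd80 and Cd86 (0.37), and the other 13 pairs ranged from 0.71 to 2.38, the last being Cd86 and Cd40. Over all genes tested, Ttc39b (0.078), Pkd1l2 (0.13) and Sh3bgrl2 (0.15) were nearest to Cd80. Tgm2 (0.16), B3galt5 (0.20) and Abcb1a (0.23) were nearest to Cd86, of which B3galt5 (0.169, 0.223 and 1.21 CPM in UNX, CO-CM and PH-CM) passed the filter through its 3 PH-CM libraries alone. Tgm2, which encodes tissue transglutaminase, averaged 100.3 CPM in UNX, 123 under CO-CM and 608 under PH-CM. Hdac9 (0.18), Oip5 (0.25) and Stmn1 (0.26) were nearest to Cd40, and Stmn1, which encodes stathmin, went from 171 CPM in UNX to 50.7 under CO-CM and 20.4 under PH-CM. Oip5 (3523 reads) shares 172 exonic bases with Nusap1 on the opposite strand (26453 reads). H2-K2 (0.063), Pink1 (0.10) and Mxd4 (0.11) were nearest to Cd274, although reads of H2-K2, which has near-identical class I relatives, are uncertain. For Icosl they were Syne3 (0.14), Gfod2 (0.14) and Mex3b (0.15), and for Vsir Cracr2b (0.064), Dync2li1 (0.065) and Ago4 (0.071), of which Cracr2b shares 1405 exonic bases with Gm10575 on the opposite strand.

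The libraries held 62017933 to 84314201 counted reads (median 68317274). All 10 macrophage markers were present, among them Csf1r at 1662 CPM in UNX (marker CPM were scaled to library size alone). The summed level of the list was 12822 to 13343 CPM in UNX, 18922 to 19679 under CO-CM and 22170 to 23493 under PH-CM. The largest part of it was Lyz2, at 7454, 12555 and 15018 CPM. Against UNX, 8 markers were called higher and 0 lower under PH-CM (80% and 0%, against 31.3% and 31.7% of all genes). Under CO-CM 6 were called higher and 2 lower (60% and 20%, against 28.0% and 28.9%). The lower ones were Cd14 and C1qa, the latter at 288 CPM in UNX and 153 under CO-CM. Dendritic cells are rich in CD80 and CD86, and the summed level of 10 dendritic cell markers moved with these members, at 9.45 to 13.1 CPM in UNX, 11.6 to 14.5 under CO-CM and 18.0 to 20.1 under PH-CM. That rise lay in Kmo (0.222, 0.635 and 3.03 CPM, above the filter in PH-CM libraries alone) and Fscn1 (9.99, 11.2 and 14.4 CPM). The other 8 markers, Flt3, Zbtb46, Ccr7, Xcr1, Clec9a, Cd209a, Dpp4 and Itgae, summed to 1.03 to 1.38 CPM in UNX and 1.21 to 1.64 under PH-CM. B cell markers summed to 2.93 to 6.12 CPM in UNX, 15.0 to 19.8 under CO-CM and 12.3 to 13.7 under PH-CM, nearly all of it Cd22, and neutrophil markers to 1.98 to 2.98, 3.13 to 4.34 and 2.63 to 3.85 CPM. Fibroblast markers summed to 204 to 258 CPM in UNX, 264 to 317 under CO-CM and 255 to 333 under PH-CM. Of 7 tested against UNX, 4 were called higher under PH-CM (57.1%, against 31.3% of all genes) and 3 under CO-CM (42.9%, against 28.0%). Under either medium 0 were called lower (0%, against 31.7% and 28.9%). The part of these genes in the results was not tested.

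The receptors listed, which include those of related ligands as well as of the members, were mostly at or near 0, as most T cell markers were. The summed level of 10 T cell markers was 85.7 to 129 CPM in UNX, 119 to 134 under CO-CM and 184 to 213 under PH-CM, but Cd3d, Cd3e, Cd3g, Cd8a and Cd8b1 were at 0 in UNX and averaged at most 0.010 CPM in any group, and the sum lay almost wholly in Cd28. Cd28, which encodes the receptor that binds CD80 and CD86, was at 102 ± 21.1 CPM in UNX, 122 ± 9.73 under CO-CM and 185 ± 16.2 under PH-CM. It was called higher under PH-CM than in UNX (log2 fold change 0.85, SE 0.13, edgeR FDR 0.000159) and than under CO-CM (0.60, SE 0.13, edgeR FDR 0.00477). Ctla4, Cd40lg and Cd226 had no reads in any library, and Pdcd1, the PD-1 receptor, had 2 reads, both of them in UNX. Of the 14 receptors listed, 5 passed the filter. Under PH-CM 3 of these were called higher against UNX (60% against 31.3% of all genes) and 0 lower (0% against 31.7%). Under CO-CM 2 were called higher and 1 lower (40% and 20%, against 28.0% and 28.9%). Between the media 2 were higher and 1 lower (40% and 20%, against 12.2% and 15.0%). Havcr2 (TIM-3), listed for related ligands and not for the members, rose from 65.2 ± 2.06 CPM in UNX to 104 ± 8.63 under PH-CM. Igsf11, a partner of VISTA, rose from 1.34 ± 0.372 CPM in UNX to 2.08 ± 0.334 under PH-CM, with 2.70 ± 0.226 under CO-CM. Selplg (PSGL-1), another partner of VISTA, was called higher under CO-CM (265 ± 32.7 CPM against 179 ± 19.0 in UNX), and Rgmb, which binds PD-L2, was called lower there (18.3 ± 3.10 against 22.2 ± 1.59 CPM).

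Other costimulatory molecules, ligands of the B7 and TNF families among them, were called in both directions. Of 14 listed, 13 were in the table and 7 passed the filter. Under PH-CM 3 were called higher and 3 lower against UNX (42.9% each, against 31.3% and 31.7% of all genes). Under CO-CM 5 were called higher and 2 lower (71.4% and 28.6%, against 28.0% and 28.9%). The median log2 fold changes were 0.18 and 0.49. Tnfrsf14 (HVEM) rose under both media, from 8.24 ± 0.844 CPM in UNX to 21.5 ± 3.48 under CO-CM and 27.6 ± 2.74 under PH-CM. Tnfsf14 (LIGHT), which binds it, went in opposite directions, from 1.75 ± 0.113 CPM in UNX down to 0.630 ± 0.140 under CO-CM and up to 5.47 ± 1.17 under PH-CM, and the media differed by 3.11 on the log2 scale (SE 0.21, edgeR FDR 2.91e-06). Cd24a and Cd276 (B7-H3) were lower under PH-CM than under CO-CM, by log2 fold changes of -2.00 and -1.49. Against UNX both were higher under CO-CM (0.55 and 0.75) and lower under PH-CM (-1.45 and -0.74). Tnfsf9 (4-1BB ligand) fell under both media, from 21.1 ± 1.36 CPM to 4.35 ± 0.860 under CO-CM and 8.23 ± 1.14 under PH-CM. It had 7245 reads and shares 192 exonic bases with Gm11110 on the opposite strand, which had 2999.

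Among 19 other inhibitory ligands and their macrophage partners, 16 passed the filter. Under PH-CM 6 were called higher and 5 lower against UNX (37.5% and 31.2%, against 31.3% and 31.7% of all genes). Under CO-CM 5 were called higher and 6 lower (31.2% and 37.5%, against 28.0% and 28.9%). Between the media 6 were higher and 4 lower (37.5% and 25.0%, against 12.2% and 15.0%). The median log2 fold changes, in this order, were 0.16, 0.07 and 0.03. Lair1, an inhibitory receptor for collagen, was at 140 ± 4.30 CPM in UNX, 111 ± 4.98 under CO-CM and 33.9 ± 1.29 under PH-CM, or -2.05 on the log2 scale for PH-CM against UNX (SE 0.051, edgeR FDR 1.26e-09). Cd200 was highest under CO-CM, at 4.81 ± 1.01 CPM against 0.686 ± 0.231 in UNX and 1.01 ± 0.109 under PH-CM, and its receptor Cd200r1 was highest under PH-CM, at 156 ± 6.42 CPM against 107 ± 11.4 in UNX. Nectin2, a ligand of TIGIT and CD226, and Pirb, an inhibitory receptor with close Pira relatives whose reads may be mixed with its own, rose under both media, with log2 fold changes for CO-CM, then PH-CM, of 0.75 and 1.12 for Nectin2 and of 0.92 and 0.85 for Pirb. Pilra fell under CO-CM and PH-CM (log2 fold change -2.44 and -1.55), as did Siglece (-1.22 and -1.01). Pilra (4368 reads) shares 468 exonic bases with Zcwpw1 on the opposite strand (1857 reads).

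Genes listed for CD40 signalling to NF-kB were more often called higher than lower while Cd40 itself fell. The list mixes carriers of the signal with inhibitors, such as Nfkbie, and target genes, such as Bcl2l1. Its counts therefore do not measure the signal. Of 22 listed, 21 passed the filter, and 10 were called higher and 2 lower under PH-CM, or 47.6% and 9.52% against the 31.3% and 31.7% of all genes. Under CO-CM these counts were 10 and 1 (47.6% and 4.76%, against 28.0% and 28.9%). Between PH-CM and CO-CM they were 4 and 2 (19.0% and 9.52%, against 12.2% and 15.0%). The median log2 fold changes, in this order, were 0.37, 0.20 and 0.16. Relb, a subunit of noncanonical NF-kB, went from 16.7 ± 3.32 CPM in UNX to 37.5 ± 3.55 under CO-CM and 45.8 ± 1.92 under PH-CM, and Birc3 (cIAP2) from 19.6 ± 1.86 to 39.3 ± 4.25 and 56.2 ± 5.44 CPM. Nfkbie, an NF-kB inhibitor, rose by 0.45 on the log2 scale under CO-CM and by 1.21 under PH-CM. Bcl2l1 (Bcl-xL) fell under both media, from 268 ± 11.3 CPM to 71.6 ± 9.24 and 58.6 ± 4.72, and Tnfaip3 (A20) was lower under PH-CM than in UNX (log2 fold change -0.41) and than under CO-CM (-0.31).

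The interferon gamma and STAT axis, which is known to drive PD-L1 and PD-L2, was tested for 20 of 21 listed genes. PH-CM raised 12 and lowered 3 (60.0% and 15.0%, against 31.3% and 31.7% of all genes). CO-CM raised 10 and lowered 3 (50.0% and 15.0%, against 28.0% and 28.9%). Between the media 6 were higher and 1 lower (30.0% and 5.0%, against 12.2% and 15.0%). The median log2 fold changes, in this order, were 0.39, 0.26 and 0.11. Socs3, a target and inhibitor of STAT3 signaling, was at 3.46 ± 0.186 CPM in UNX, 9.51 ± 2.47 under CO-CM and 19.1 ± 2.43 under PH-CM. Il4ra, the receptor chain shared by IL-4 and IL-13, was at 106 ± 5.20, 137 ± 12.7 and 306 ± 37.2 CPM, and Il13ra1 rose by 0.83 on the log2 scale under CO-CM and by 1.06 under PH-CM. Socs1 fell under CO-CM (log2 fold change -1.52) and PH-CM (-0.91), Irf4 fell under PH-CM (-0.83), and Stat2 fell under CO-CM (-0.42). Irf8 was above UNX under CO-CM (0.71) and PH-CM (0.35), with PH-CM the lower of the media (-0.37).

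Of 19 genes of turnover and trafficking of the ligand proteins, all were tested. PH-CM raised 9 and lowered 3 (47.4% and 15.8%, against 31.3% and 31.7% of all genes). CO-CM raised 8 and lowered 3 (42.1% and 15.8%, against 28.0% and 28.9%). The media differed at 1 in each direction (5.26% each, against 12.2% and 15.0%). The median log2 fold changes, in this order, were 0.21, 0.21 and 0.08. March1, a ubiquitin ligase that removes CD86 from the cell surface, was at 6.48 ± 1.84 CPM in UNX, 28.5 ± 3.78 under CO-CM and 23.5 ± 3.91 under PH-CM. Its log2 fold change was 2.13 under CO-CM (SE 0.20, edgeR FDR 4.59e-06) and 1.85 under PH-CM (SE 0.20, edgeR FDR 9.52e-06). Zc3h12a, an RNase of inflammatory transcripts, rose under both media, from 10.3 ± 0.818 to 25.9 ± 2.24 and 34.3 ± 2.92 CPM. Stub1 fell under CO-CM and PH-CM (log2 fold change -0.57 and -0.46), as did Cops5 (-0.32 and -0.44) and Zdhhc3 (-0.36 and -0.34). Adam17 was above UNX under CO-CM (0.58) and PH-CM (0.28), with PH-CM the lower of the media (-0.30). Of these, Stub1 shares 1084 of its 2561 exonic bases with Jmjd8 on the opposite strand.

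**Figure D5:**
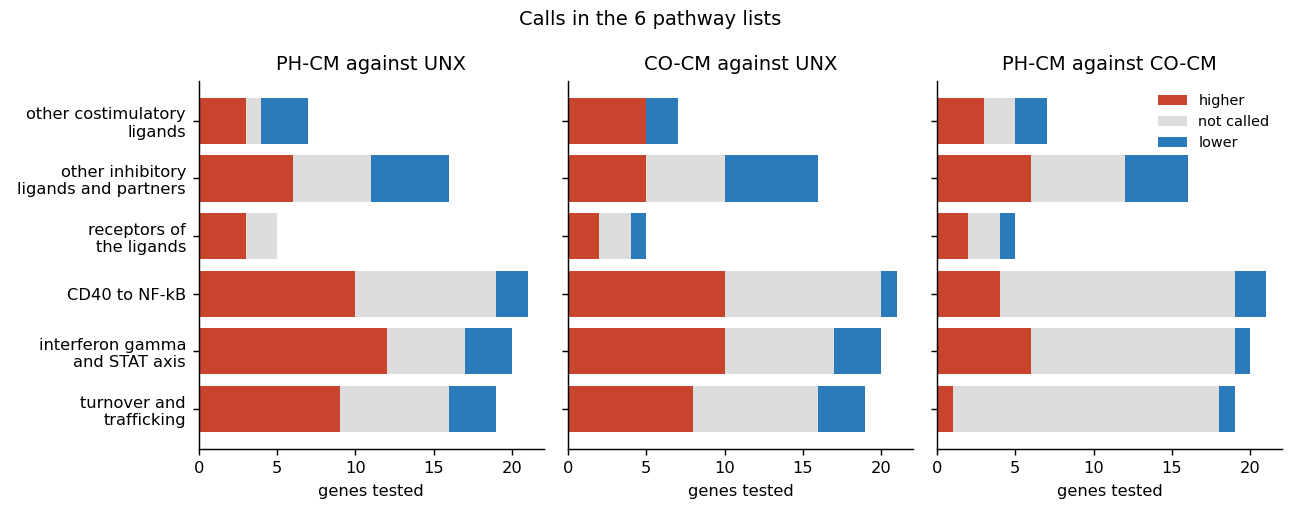
Number of genes called higher, called lower or not called in each of the 6 lists, for the 3 comparisons. The CD40 to NF-kB list holds 10 genes called higher under each medium (47.6%, against 31.3% of all genes under PH-CM and 28.0% under CO-CM). The turnover list holds 17 genes not called between the media.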

How the data were processed

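RNA-Seq counts of 9 BMDM libraries were analysed, with groups and replicate numbers taken from the labels. Per the methods and the submitters' processing notes, the authors used FastQC and AfterQC for quality control, STAR for alignment to GRCm38 and featureCounts 1.6.2 for counting. The deposited counts per gene are raw whole reads, not normalized. Most counts under 20 were even (81.4% to 83.8% per library), so mates were taken to be counted separately. The deposited RPKM values divide these counts by exon length and by the counted reads of the library. The authors' comparison tables hold log2 fold changes, log2 CPM, p-values and FDR and were not used.

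All 9 libraries entered 1 fit with a mean per group in edgeR 4.0.16 (R 4.3.3, TMM, quasi-likelihood F test). The filter asked for over 1 CPM, scaled to library size alone, in 3 or more libraries. Benjamini-Hochberg FDR values were taken over the 11950 genes tested. DESeq2 1.42.0, the exact test of edgeR, other scalings, filters, thresholds and left-out libraries were alternatives. Counts divided by 2, and all groups without replicate 1, were added after seeing the data. Libraries with the same replicate number deviated together in every pair (r between 0.276 and 0.484). The shared numbers in the labels were therefore read as pairs, and the fit with a replicate block was an alternative. No 2 libraries of a group agreed within sampling noise (lowest chi-square per gene 8.91). The fit was also run on simulated counts. These were drawn independently for each library, so that run did not test the shared deviations of libraries with the same number. The ratio of Cd80 to Cd86 was compared by exact permutation over libraries. The planned ratio of Cd274 to Pdcd1lg2 could not be computed, since Pdcd1lg2 was at 0 in 5 libraries.

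The members and lists were chosen with earlier results of these data known. Genes were named by a rule: all members, the receptors that passed the filter, the 2 called genes with the largest rise and the 2 with the largest fall in each other list and comparison, and the 3 genes most like each member. Symbols were matched through Ensembl identifiers (53274 of 53465), and Cd58 of the costimulatory list had no line in the table. Coordinates come from GENCODE vM21 (GRCm38) and promoter windows from RefSeq (GRCm38.p6).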

Additional observations from a re-analysis of the deposited data

How the results depend on the processing

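Each member's log2 fold change was recomputed under 20 alternatives in each comparison, and 356 of 360 values kept their direction and their side of the threshold. The other values were Icosl between the media with the replicate block, without CO-CM replicate 1 and without replicate 1 of all groups (0.46, edgeR FDR 0.0271), and Vsir without CO-CM replicate 2, all given a call there. The paired fit (replicate block) changed no other call and gave 3 members called higher for PH-CM against CO-CM in place of 2. A fold change of at least 2 left 1 member lower for PH-CM against UNX, since Icosl dropped out, and left 18, 13 and 7 of the pathway genes called for PH-CM against UNX, CO-CM against UNX and PH-CM against CO-CM, in place of 59, 56 and 33. With 1 library left out, these counts ranged from 58 to 60, from 53 to 56 and from 29 to 35 (37 without replicate 1 of all groups), and the log2 difference in Cd80 to Cd86 ratio from -0.90 to -0.59, from -0.40 to -0.10 and from -0.65 to -0.39. Among members tested, the lowest counts were those of Cd40 under PH-CM, and Pdcd1lg2 lay below what this depth can measure.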

Other observations

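Among the macrophage markers, Cd14, the coreceptor for endotoxin, averaged 318 CPM in UNX, 171 under CO-CM and 821 under PH-CM, scaled to library size alone. It was called lower under CO-CM (log2 fold change -0.82, edgeR FDR 1.77e-05) as well as higher under PH-CM (1.43, edgeR FDR 2.32e-07). Itgam (CD11b) was called higher under PH-CM (0.72, edgeR FDR 0.000159) and gave -0.22 under CO-CM (edgeR FDR 0.108). Mertk, a receptor for apoptotic cells, was called higher under both media, by 1.51 under CO-CM and 1.69 under PH-CM. Cd4 and Cd2, which were listed as T cell markers, were called higher under both media. Cd4 averaged 2.26 CPM in UNX, 6.99 under CO-CM and 14.5 under PH-CM. Cd2 averaged 0.027, 0.227 and 2.59 CPM and passed the filter through the PH-CM libraries alone.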
